A study of Mus musculus with 4 samples.

Results

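The genes that make sterols and fatty acids were read as 33 rows of a gene expression table of 51826 genes, chosen by gene name. They comprise 18 enzymes of the sterol pathway, 10 enzymes that make, lengthen or desaturate fatty acids, and 5 regulators and carriers. The list does not cover every enzyme of either pathway. Polyadenylated RNA had been sequenced from mouse embryonic stem cells of C57BL/6 background directed towards mesoderm and collected at day 3, in 2 libraries from cells lacking Stk40 (Stk40-/-) and 2 from wild-type cells. Both genotypes had been grown on feeder fibroblasts, passaged once without them, kept 2 days with BMP4 at 10 ng/ml and 1% knock-out serum replacement, and then 1 day with 15% of that replacement, CHIR99021 at 1 uM and 0.5% DMSO. The labels do not say whether the libraries of a genotype came from separate cultures or separate cell lines, so p-values measure the spread between these libraries, which may be technical, and a genotype cannot be told apart from a line.

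Cells build cholesterol from acetyl-CoA through mevalonate, farnesyl diphosphate, squalene and lanosterol, and build fatty acids from the same acetyl-CoA through malonyl-CoA. Both pathways are controlled by the SREBP transcription factors. These are held in the endoplasmic reticulum by the SCAP and INSIG proteins when sterols are plentiful and released to the nucleus when sterols run low. SREBP2, encoded by Srebf2, acts mainly on sterol genes, and SREBP1, encoded by Srebf1, has forms that act mainly on fatty acid genes.

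Fatty acid enzymes were higher in both Stk40-/- libraries than in both wild-type libraries in 10 of 10 genes (9 of 10 after median centring of the libraries), with a median log2 fold change of 0.46. Of the 18 sterol enzymes, 6 had both Stk40-/- libraries above both wild-type libraries and 1, Ebp, had both below, with a median of 0.29. Over all 15739 genes tested, 27.5% had both Stk40-/- libraries above both wild-type libraries, 16.6% had both below, and the median was 0.07. The sterol genes also differed between the Stk40-/- libraries themselves: 17 of 18 were lower in library 2 than in library 1. Their median of library 2 minus library 1 was -0.49 on the log2 scale. Library 2 was also the lower in 9 of the 10 fatty acid enzymes, with a smaller median of -0.19, and in 4 of the 5 regulators and carriers. Over all genes tested, 54.0% were lower in library 2. With a library left out, groups fail to overlap more easily. Without Stk40-/- library 2, 14 sterol enzymes were above both wild-type libraries (all genes tested, 44.1%), Ebp was below, and the median was 0.52. Without Stk40-/- library 1 the count above was 6 (all genes tested, 39.9%), with 4 below (all genes tested, 4506 of 15739), and the median was 0.04. Without wild-type library 1 the sterol median was 0.28 (all genes tested, 0.07). Without wild-type library 2 the sterol median was 0.25 (all genes tested, 0.05). No gene passed limma with Benjamini-Hochberg adjustment at 0.05, so 0% of all genes tested and 0 of the 33 members were called in either direction. At an unadjusted limma p under 0.05 there were 1730 genes in all (11.0%) and 10 members. All 33 members exceeded the filter of a mean of at least 1 TPM, a transcript abundance unit scaled for transcript length and library size, the lowest mean being 11.7 TPM for Acss2. Fold changes are log2 values of Stk40-/- over wild type on the log2(TPM + 1) scale, on which low genes show smaller changes, and errors are SD with n = 2 per group unless given as SE.

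Stk40 itself (ENSMUSG00000042608.15; GRCm38 chromosome 4, 126103957 to 126141029), read as a check of the labels, was at 3.54 and 3.17 TPM in the Stk40-/- libraries, against 28.9 and 39.9 TPM in the wild-type libraries. Of the markers of mesoderm and primitive streak, the 8 genes listed summed to 425 and 274 TPM in the Stk40-/- libraries and to 1259 and 649 TPM in the wild-type libraries, most of it from the streak factor T (355 and 217 TPM in the Stk40-/- libraries, 1025 and 535 TPM in wild type). The nascent mesoderm factor Mesp1 was at 0 TPM in both Stk40-/- libraries and in wild-type library 2 and at 0.177 TPM in wild-type library 1. Msgn1, a factor of presomitic mesoderm, was at 0.975 and 0 TPM in the Stk40-/- libraries, against 90.6 and 7.22 TPM in wild type. Tbx6, of the same tissue, was at 0.358 and 0.661 TPM in the Stk40-/- libraries and at 2.33 and 0.468 TPM in wild type, with overlap. Msgn1, Tbx6 and Mixl1 (2.06 and 1.71 against 24.7 and 6.77 TPM) were thus uneven between the wild-type libraries. Fgf8 (51.8 and 42.3 against 97.8 and 82.6 TPM) and Wnt3 (11.5 and 9.80 against 14.4 and 14.6 TPM) were more even and lower in both Stk40-/- libraries. Eomes overlapped, at 2.82 and 2.51 against 3.91 and 2.37 TPM. The 5 pluripotency markers summed to 633 and 683 TPM in the Stk40-/- libraries, against 521 and 655 TPM in the wild-type libraries. The largest part was Pou5f1, which overlapped (372 and 465 against 370 and 473 TPM), as Sox2 and Esrrb did. Nanog was higher in both Stk40-/- libraries, at 219 and 166 TPM against 113 and 132 TPM in wild type. Zfp42 was lower in both Stk40-/- libraries, at 12.58 and 13.03 TPM against 17.99 and 17.51 TPM in wild type. The 7 feeder fibroblast markers summed to 16.3 to 19.8 TPM in the Stk40-/- libraries and 20.3 to 30.7 TPM in wild type. Within that list Col1a1, Col1a2 and Col3a1 were lower in both Stk40-/- libraries, while the largest part of the Stk40-/- sums, Thy1, overlapped at 13.1 and 9.17 TPM in the Stk40-/- libraries and 7.28 and 9.42 TPM in wild type. Col1a1 was at 3.96 and 3.74 TPM in the Stk40-/- libraries, against 6.98 and 7.29 TPM in wild type. Col3a1 was at 0.113 and 0.609 TPM in the Stk40-/- libraries, against 1.35 and 6.31 TPM in wild type. The 8 endoderm markers summed to 12.1 to 13.1 TPM in the Stk40-/- libraries and to 12.3 to 15.9 TPM in wild type. No list was at 0 throughout, although 3 feeder and 4 endoderm markers had means under 1 TPM. The 6 neuroectoderm markers summed to 88.5 and 124 TPM in Stk40-/- libraries 1 and 2, against 75.6 and 83.8 TPM in wild type. Most of this was Nes, which overlapped (52.9 and 73.0 against 54.3 and 52.0 TPM), as Pax6 did. Sox1, Neurod1, Tubb3 and Sox3 were above wild type in both Stk40-/- libraries. The part of these cell states in the lipid gene differences was not tested, and in bulk RNA fewer cells of a type and less RNA per cell cannot be told apart.

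The promoters of 26 of the 33 members were in the RefSeq table for GRCm38.p6, as 250 bases before and 50 after each annotated start. Those of Hmgcs1, Mvd, Fasn, Ebp and Nsdhl are shown. Hmgcs1 and Mvd are among the 6 of 18 sterol enzymes with both Stk40-/- libraries above both wild-type libraries. Fasn follows the fatty acid pattern, and Ebp and Nsdhl are sterol genes on the same chromosome with unlike values. Each runs 5′ to 3′ on the gene's own strand, contains no base of an annotated exon and ends next to the start. Capitals mark TCACNCCAC, the core of a sterol regulatory element, CCAAT, bound by NF-Y, and GGGCGG, bound by Sp1, each sought on both strands, so that ATTGG and CCGCCC also mark a match. The windows lie at chr13:119690101-119690350 (plus strand), chr8:122443423-122443672 (minus), chr11:120824548-120824797 (minus), chrX:8193513-8193762 (minus) and chrX:72918412-72918520 (plus).
Hmgcs1: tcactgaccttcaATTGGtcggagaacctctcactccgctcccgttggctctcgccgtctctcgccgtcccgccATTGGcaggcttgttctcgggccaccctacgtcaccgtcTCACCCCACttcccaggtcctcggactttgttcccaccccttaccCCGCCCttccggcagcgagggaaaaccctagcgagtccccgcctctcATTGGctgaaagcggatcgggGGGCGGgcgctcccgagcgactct
Mvd: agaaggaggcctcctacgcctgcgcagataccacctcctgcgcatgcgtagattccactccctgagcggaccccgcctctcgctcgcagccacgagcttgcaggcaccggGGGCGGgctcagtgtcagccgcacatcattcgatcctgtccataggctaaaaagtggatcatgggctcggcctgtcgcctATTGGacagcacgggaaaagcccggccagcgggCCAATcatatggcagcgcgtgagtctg
Fasn: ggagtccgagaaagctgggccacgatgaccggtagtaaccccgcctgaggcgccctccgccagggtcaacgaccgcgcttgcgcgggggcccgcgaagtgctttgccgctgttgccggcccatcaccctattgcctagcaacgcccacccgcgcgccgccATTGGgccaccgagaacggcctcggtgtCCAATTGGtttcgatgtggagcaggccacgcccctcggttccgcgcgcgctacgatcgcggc
Ebp: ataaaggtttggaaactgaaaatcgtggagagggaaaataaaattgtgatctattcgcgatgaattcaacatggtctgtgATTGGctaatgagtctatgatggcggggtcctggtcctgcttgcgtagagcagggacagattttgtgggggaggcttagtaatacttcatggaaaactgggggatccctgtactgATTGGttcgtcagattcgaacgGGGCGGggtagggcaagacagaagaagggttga
Nsdhl: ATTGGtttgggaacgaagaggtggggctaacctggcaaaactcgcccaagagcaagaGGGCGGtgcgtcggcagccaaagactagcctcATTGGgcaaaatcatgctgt

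The Hmgcs1 window holds the only TCACNCCAC among the promoters of the 26 members searched, beginning 137 bases before the start, with 3 CCAAT matches and 2 GGGCGG matches. The other 7 members, among them Sqle, Fdft1, Fdps and Stard4, were not in the promoter table. Other spellings of the sterol regulatory element were not sought. In Fasn 2 of the 3 CCAAT matches overlap as the palindrome CCAATTGG. CCAAT was in 14 of the 15 sterol enzyme promoters in the table (93.3%), all but Acat2, and in 4 of the 7 fatty acid enzyme promoters (57.1%), against 43.6% of 10435 tested genes with a promoter in the table. GGGCGG was in 14 of 15 sterol promoters, all but Pmvk, and in 4 of 7 fatty acid promoters, against 69.5% of tested genes. TCACNCCAC was in 1.48% of tested genes and the E-box CACGTG in 11.7%, against 5 of the 26 members (19.2%). These shares count a gene once if any of its starts holds a match within the whole window of 250 bases before and 50 after. The printed stretch of Ebp holds 2 CCAAT matches and 1 GGGCGG in 250 bases, and that of Nsdhl holds the same counts in 109 bases. Whether these motifs bear on the values of any member was not tested.

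**Figure D1:**
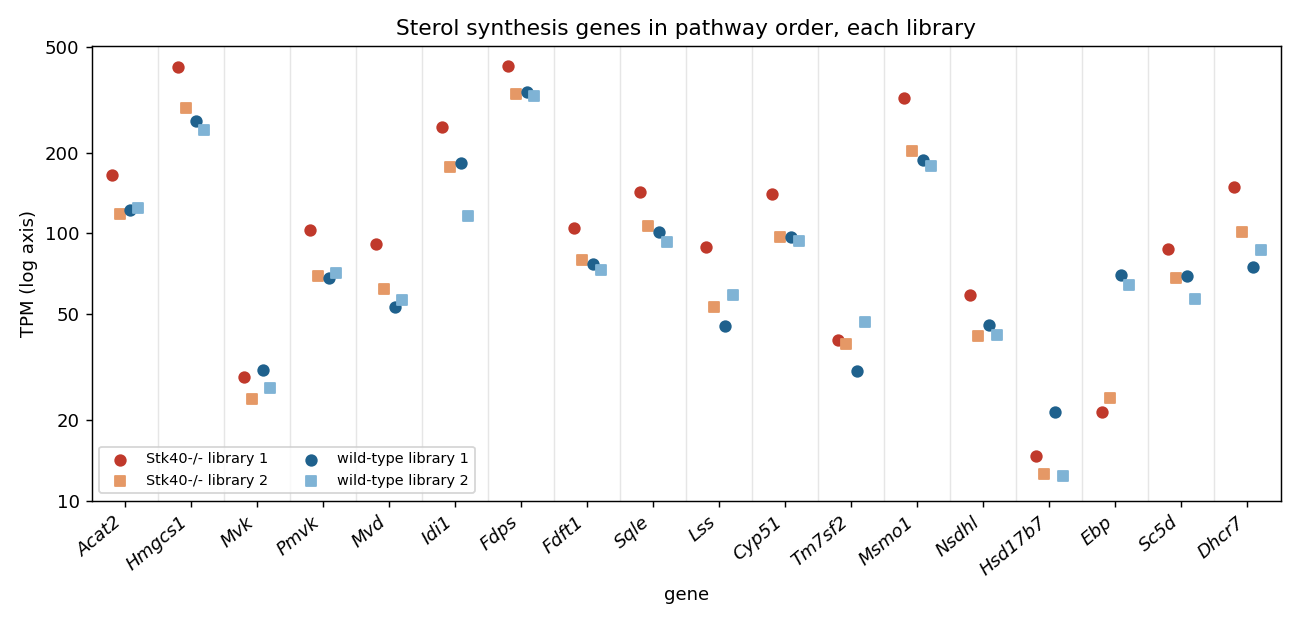
TPM on a log axis for the 18 sterol enzymes in pathway order, with the Stk40-/- libraries (red and orange) left of the wild-type libraries (dark and light blue) in each column. Stk40-/- library 1 stands above both wild-type libraries in 14 genes and library 2 in 6, and Ebp is the one gene with both Stk40-/- libraries below both wild-type libraries.

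The first sterol steps join acetyl-CoA units and make mevalonate into isoprenoid units. Hmgcs1, which encodes the synthase that makes HMG-CoA (ENSMUSG00000093930.1; chromosome 13, 119690379 to 119708260), stood at 419.7 and 296 TPM in the Stk40-/- libraries, against 263 and 245 TPM in the wild-type libraries. The groups did not overlap, but the Stk40-/- libraries lay further apart than the group means (log2 fold change 0.47, SE 0.18, 95% interval -0.02 to 0.97, limma adjusted p = 0.469). Mvd, the mevalonate diphosphate decarboxylase, whose promoter is shown above, was at 91.7 and 62.2 TPM in the Stk40-/- libraries, against 53.0 and 56.3 TPM in the wild-type libraries. Idi1, which isomerises isopentenyl diphosphate, was at 250.4 and 178 TPM in Stk40-/- cells and at 183 and 116 TPM in wild-type cells. Its groups overlapped, since wild-type library 1 was above Stk40-/- library 2. Acat2, which joins 2 acetyl-CoA molecules, Pmvk, the phosphomevalonate kinase, and Fdps, the farnesyl diphosphate synthase, shared a pattern of 1 high library. Acat2 was at 166 and 118 TPM in the Stk40-/- libraries and at 123 and 125 TPM in wild type, and Pmvk at 103 and 69.3 TPM against 68.3 and 71.1 TPM. Fdps was at 422 and 334 TPM in the Stk40-/- libraries and at 339 and 326 TPM in wild type. In all 3 genes library 1 of the Stk40-/- pair was above both wild-type libraries and library 2 lay within or near their range. Mvk, the mevalonate kinase, was at 28.9 and 24.1 TPM in the Stk40-/- libraries, against 30.9 and 26.4 TPM in wild type, and did not share the high value of library 1.

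The middle steps join farnesyl units into squalene and close it to lanosterol. Fdft1, the squalene synthase, was at 105 and 79.7 TPM in the Stk40-/- libraries, against 76.9 and 72.7 TPM in wild type. Sqle, the squalene epoxidase, was at 143 and 107 TPM in the Stk40-/- libraries, against 101 and 93.0 TPM in wild type. In both genes the groups did not overlap, and Stk40-/- library 2 lay close above wild-type library 1. Lss, the lanosterol synthase, was at 88.9 and 53.1 TPM in the Stk40-/- libraries and at 45.0 and 58.6 TPM in wild type. It had the widest gap between the Stk40-/- libraries among the 33 members, with library 2 lower by 0.73 on the log2 scale, and its groups overlapped. Exons of Fdft1 share 774 bases with Ctsb on the opposite strand, and no source used here says whether counting used strand. Ctsb was at 31.3 and 33.5 TPM in the Stk40-/- libraries and at 42.0 and 42.5 TPM in wild type, in the other direction from Fdft1.

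The late steps turn lanosterol into cholesterol by removing methyl groups, moving a double bond and reducing others. Dhcr7, which reduces 7-dehydrocholesterol (ENSMUSG00000058454.15; chromosome 7, 143823145 to 143848410), stood at 149 and 101 TPM in the Stk40-/- libraries, against 74.7 and 86.6 TPM in the wild-type libraries. Both Stk40-/- libraries were above both wild-type libraries, and Dhcr7 had the largest positive fold change of the sterol enzymes (0.61, SE 0.22, 95% interval 0.02 to 1.19, limma adjusted p = 0.447). Msmo1, the methylsterol monooxygenase, was at 323 and 204 TPM in the Stk40-/- libraries, against 188 and 179 TPM in wild type, again without overlap. Cyp51, which removes the 14-alpha methyl group of lanosterol, was at 140.2 and 96.9 TPM in the Stk40-/- libraries and at 97.3 and 93.6 TPM in wild type. Sc5d, the lathosterol desaturase, was at 87.4 and 68.0 TPM in the Stk40-/- libraries and at 69.4 and 56.9 TPM in wild type. In both, Stk40-/- library 2 lay between the wild-type libraries. Nsdhl, which acts in removal of the C4 methyl groups and lies on the X chromosome, was at 59.0 and 41.5 TPM in the Stk40-/- libraries and at 45.6 and 41.5 TPM in wild type. Tm7sf2 and Hsd17b7, a sterol reductase and a ketosteroid reductase, differed more within wild type than within Stk40-/-. Tm7sf2 was at 39.9 and 38.5 TPM in the Stk40-/- libraries and at 30.6 and 46.6 TPM in wild type. Hsd17b7 was at 14.7 and 12.5 TPM in the Stk40-/- libraries and at 21.5 and 12.4 TPM in wild type. Exons of Tm7sf2 share 532 bases with Vps51 on the same strand and those of Cyp51 166 bases with Akap9 on the opposite strand, so these values are less certain. Vps51 was at 47.8 and 27.2 TPM in the Stk40-/- libraries and at 28.9 and 37.2 TPM in wild type. Akap9 was at 25.2 and 11.1 TPM in the Stk40-/- libraries and at 12.1 and 6.67 TPM in wild type. In both, Stk40-/- library 1 was above both wild-type libraries, as in Cyp51.

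Ebp, the sterol isomerase that moves the double bond of the B ring (ENSMUSG00000031168.14; X chromosome, 8185329 to 8193512), was the member furthest from the others. It was at 21.4 and 24.2 TPM in the Stk40-/- libraries, against 69.7 and 64.1 TPM in the wild-type libraries, or 22.8 ± 1.95 against 66.9 ± 3.93 TPM (SD, n = 2 each). The log2 fold change was -1.51 (SE 0.12, 95% interval -1.83 to -1.19), and its limma adjusted p of 0.139 missed the threshold. Within each genotype its libraries differed by 0.17 or less on the log2 scale. Its low value in the Stk40-/- libraries was shared by genes around it on the chromosome, a comparison chosen after its value was seen. All 27 protein-coding neighbours within 1 Mb on either side that averaged 5 TPM or more had negative fold changes, with a median of -1.13 and a range of -1.61 to -0.05. In the windows around the other 32 members the median ran from -0.18 to 0.19, over 3 to 61 neighbours. Porcn, an acyltransferase for WNT proteins, was at 9.63 and 9.35 TPM in the Stk40-/- libraries, against 18.1 and 23.3 TPM in wild type. Tbc1d25 was at 8.70 and 8.90 TPM in the Stk40-/- libraries, against 19.4 and 17.0 TPM in wild type. On the X chromosome before 10 Mb, 35 of 35 such genes were negative, with a median of -1.17, and Ebp was among the 4 lowest. From 10 Mb on, 121 of 329 genes were negative, with a median of 0.11. Nsdhl, further along the same chromosome, had 17 neighbours within 1 Mb, of which 10 were negative, with a median of -0.04. The Ebp-like gene Ebpl was at 14.7 and 11.6 TPM in the Stk40-/- libraries and at 12.4 and 15.4 TPM in wild type. Whether the low Ebp belongs to the pathway, to the chromosome region or to the cell line was not tested.

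**Figure D2:**
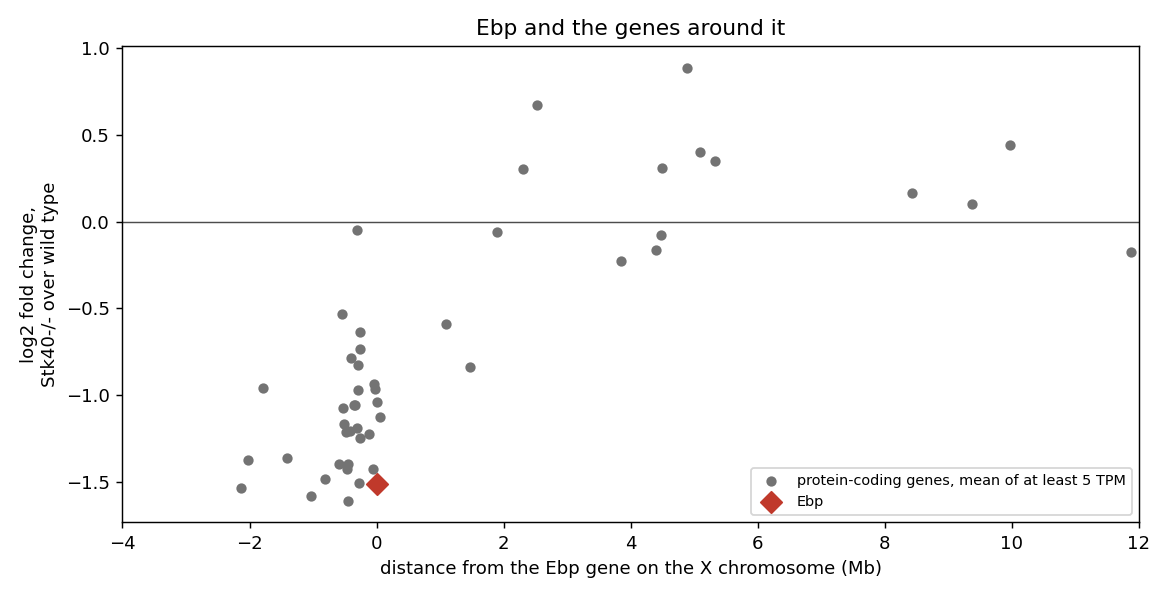
Log2 fold change of Stk40-/- over wild type for protein-coding X chromosome genes averaging 5 TPM or more, against distance in Mb from the Ebp gene, from 4 Mb before to 12 Mb after it; each grey point is 1 gene and the red diamond is Ebp. Genes within 1 Mb of Ebp lie between -1.61 and -0.05, while genes further along lie on both sides of 0.

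Fatty acid synthesis begins with cytosolic acetyl-CoA and NADPH. Acly, which cuts citrate into acetyl-CoA (chromosome 11, 100476353 to 100528000), stood at 279.9 and 225 TPM in the Stk40-/- libraries, against 185 and 192 TPM in the wild-type libraries. Acss2, which makes acetyl-CoA from acetate, was at 14.8 and 13.4 TPM in the Stk40-/- libraries, against 7.83 and 10.8 TPM in wild type. Me1, the malic enzyme that supplies NADPH, was at 47.5 and 45.1 TPM in the Stk40-/- libraries and at 44.7 and 37.1 TPM in wild type. Its groups were separated by less than the gap between the wild-type libraries, and it had the smallest fold change of the 10 (0.18). Acaca, which carboxylates acetyl-CoA to malonyl-CoA, was at 68.4 and 74.3 TPM in the Stk40-/- libraries, against 56.7 and 58.4 TPM in wild type. It was the one fatty acid enzyme that was higher in Stk40-/- library 2 than in library 1. Exons of Acss2 share 395 bases with Gss on the opposite strand.

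Fasn, the synthase that builds palmitate, whose promoter is shown above (ENSMUSG00000025153.9; chromosome 11, 120805846 to 120824547), stood at 252 and 233 TPM in the Stk40-/- libraries, against 148 and 189.6 TPM in the wild-type libraries. The groups did not overlap, and the wild-type libraries differed more than the Stk40-/- libraries (242 ± 13.2 against 169 ± 29.7 TPM, SD, n = 2 each). The fold change was 0.53 (SE 0.14, 95% interval 0.14 to 0.92, limma adjusted p = 0.401). Elovl6, which lengthens palmitate to stearate (ENSMUSG00000041220.10; chromosome 3, 129532355 to 129638495), stood at 74.9 and 71.4 TPM in the Stk40-/- libraries, against 46.6 and 44.6 TPM in wild type. Within each genotype its libraries differed by 0.07 or less on the log2 scale, and the fold change was the largest of the fatty acid enzymes (0.67, SE 0.09, 95% interval 0.42 to 0.92). Its limma adjusted p of 0.265 missed the threshold.

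The desaturases put double bonds into fatty acids. Scd2, a stearoyl-CoA desaturase (chromosome 19, 44293674 to 44306864), was the most abundant of the 33 transcripts, with 539 and 422 TPM in the Stk40-/- libraries, against 314 and 378 TPM in wild type. Scd1, its neighbour with the same activity, was at 101 and 83.8 TPM in the Stk40-/- libraries, against 59.0 and 69.7 TPM in wild type. Reads can be divided among these similar genes, although Scd3 was at or below 1.91 TPM and Scd4 at or below 0.191 TPM in every library. Fads2, the delta-6 desaturase of polyunsaturated fatty acids, was at 205 and 172 TPM in the Stk40-/- libraries, against 135 and 138 TPM in wild type (fold change 0.46, SE 0.11, limma adjusted p = 0.385). Fads1, the delta-5 desaturase, was at 78.3 and 63.1 TPM in the Stk40-/- libraries, against 58.0 and 60.5 TPM in wild type, where the lowest Stk40-/- value was close to the highest wild-type value. Of the 10 fatty acid enzymes, 8 had a 95% interval above 0 before adjustment, against 6.48% of all genes tested that were higher at an unadjusted p under 0.05. The exceptions were Me1 and Fads1.

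**Figure D3:**
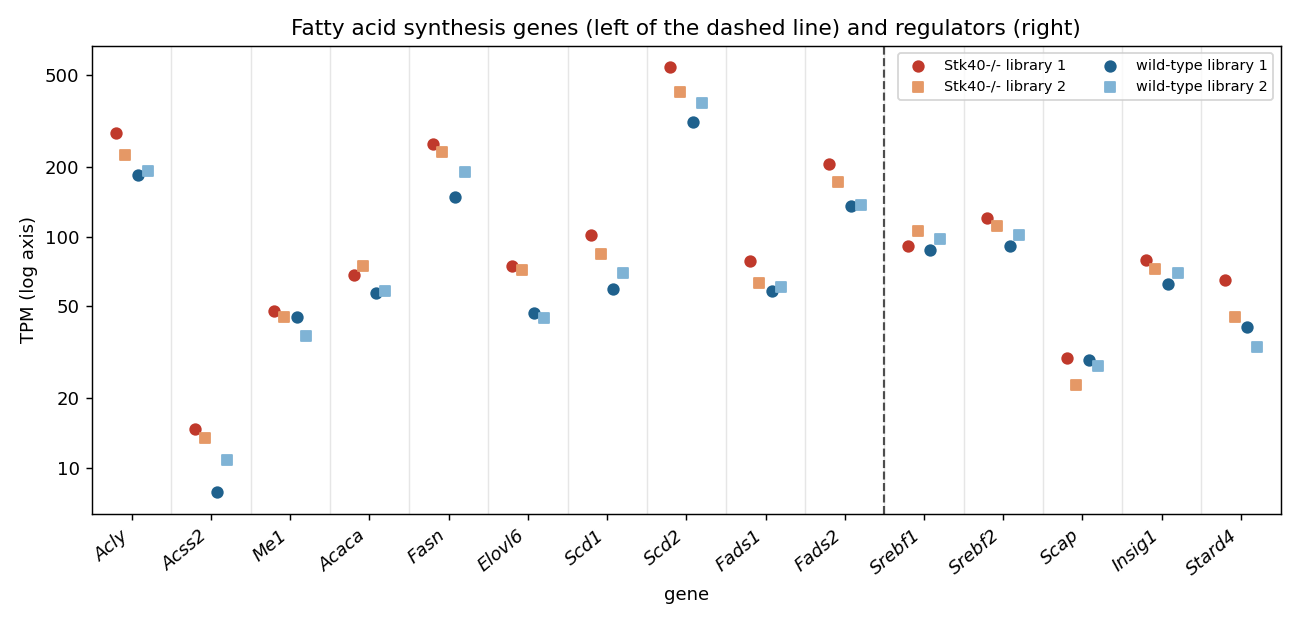
TPM on a log axis for the 10 fatty acid enzymes, left of the dashed line, and the 5 regulators and carriers, right of it, with the Stk40-/- libraries (red and orange) left of the wild-type libraries (dark and light blue) in each column. Both Stk40-/- libraries stand above both wild-type libraries in all 10 enzymes and in Srebf2, Insig1 and Stard4.

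Among the regulators, Srebf2 (chromosome 15, 82147181 to 82205379) stood at 120.4 and 111 TPM in the Stk40-/- libraries, against 91.0 and 101 TPM in the wild-type libraries. Srebf1 was at 90.7 and 106 TPM in the Stk40-/- libraries and at 87.1 and 97.1 TPM in wild type, with overlapping groups. Its exons share 109 bases with Rai1 on the opposite strand. Insig1, the retention protein that is itself a target of the SREBPs, was at 79.5 and 72.7 TPM in the Stk40-/- libraries, against 62.6 and 69.4 TPM in wild type. Scap, the escort protein of the SREBPs, was at 30.0 and 22.8 TPM in the Stk40-/- libraries and at 29.4 and 27.7 TPM in wild type. Stard4, a carrier of cholesterol between membranes, was at 64.7 and 44.8 TPM in the Stk40-/- libraries, against 40.5 and 33.4 TPM in wild type. Its libraries had the pattern of the sterol enzymes, with library 2 lower than library 1 by 0.52 on the log2 scale. Fold changes were 0.27 for Srebf2, 0.09 for Srebf1, 0.20 for Insig1, -0.12 for Scap and 0.54 for Stard4, and none passed limma after adjustment. Transcript levels of the SREBP genes do not give the amount of the cleaved, nuclear proteins, which were not measured here.

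Sterol and fatty acid enzymes had unlike values in the Stk40-/- libraries themselves. Of the 18 sterol enzymes, 13 (72.2%) had a larger gap between the Stk40-/- libraries than between the genotypes, against 1 of the 10 fatty acid enzymes (10.0%) and 48.5% of all genes tested. Against the wild-type mean, the median sterol enzyme was higher by 0.52 on the log2 scale in Stk40-/- library 1 and by 0.04 in library 2, where all genes tested had medians of 0.07 and 0.05. The median fatty acid enzyme was higher by 0.59 in library 1 and by 0.35 in library 2. Library 1 was above both wild-type libraries in 14 of 18 sterol enzymes (all genes tested, 44.1%), and library 2 in 6 of 18 (all genes tested, 39.9%). Both libraries were above both wild-type libraries in 10 of 10 fatty acid enzymes. Summed over the list, sterol enzymes came to 2653 and 1908 TPM in the Stk40-/- libraries, against 1879.9 and 1769 TPM in the wild-type libraries. Fatty acid enzymes came to 1661 and 1403 TPM in the Stk40-/- libraries, against 1054 and 1178 TPM in wild type. The sterol sum of Stk40-/- library 2 was thus near that of wild-type library 1, while its fatty acid sum was above both wild-type sums. Read length and instrument may differ between libraries, since the labels give 2 of each without saying which library had which, and their part in the gap between libraries was not tested. Mesoderm and streak markers, mostly T, summed to 425 and 274 TPM in Stk40-/- libraries 1 and 2 and to 1259 and 649 TPM in wild type. The sterol median of library 2 minus library 1 was -0.49 in Stk40-/- and -0.08 in wild type. That of the fatty acid enzymes was -0.19 in Stk40-/- and 0.06 in wild type. A link between these markers and the lipid genes was not tested.

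**Figure D4:**
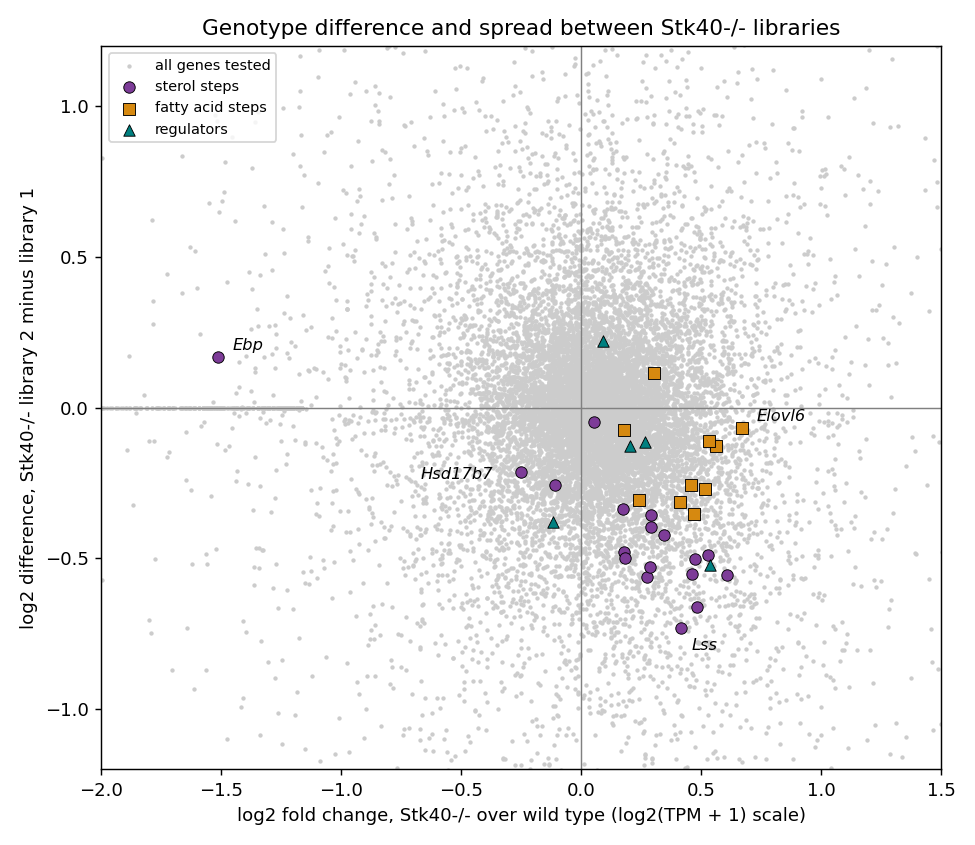
Each point is a gene, with the log2 fold change of Stk40-/- over wild type on the horizontal axis and the log2 difference between the Stk40-/- libraries, library 2 minus library 1, on the vertical axis; grey points are the 15739 genes tested within the plotted range. Purple sterol enzymes lie lower, around a median difference of -0.49, than orange fatty acid enzymes, around -0.19, and Ebp lies alone at a fold change of -1.51.

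Other genes of the same control system were read from lists chosen by function. Of 7 genes for SREBP processing and turnover, 1 was above wild type in both Stk40-/- libraries and 2 were below (all genes tested, 27.5% and 16.6%), with a median fold change of 0.08. Of 9 further SREBP-linked genes 8 were tested, Thrsp being under the filter. All 8 had positive fold changes (all genes tested, 58.6%), and 5 were above wild type in both Stk40-/- libraries (all genes tested, 27.5%), with a median of 0.35. Lpin1, a phosphatidate phosphatase, was at 21.5 and 17.1 TPM in the Stk40-/- libraries, against 11.1 and 12.4 TPM in wild type (fold change 0.66, limma adjusted p = 0.400). Mid1ip1, an activator of acetyl-CoA carboxylase, was at 32.8 and 27.8 TPM in the Stk40-/- libraries, against 15.1 and 22.7 TPM in wild type. Acsl3, an acyl-CoA synthetase, was at 299 and 232 TPM in the Stk40-/- libraries, against 193 and 205 TPM in wild type. Against the wild-type mean the median of these 8 was 0.45 in Stk40-/- library 1 and 0.17 in library 2, so that library 1 was the higher of the pair here too.

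**Figure D5:**
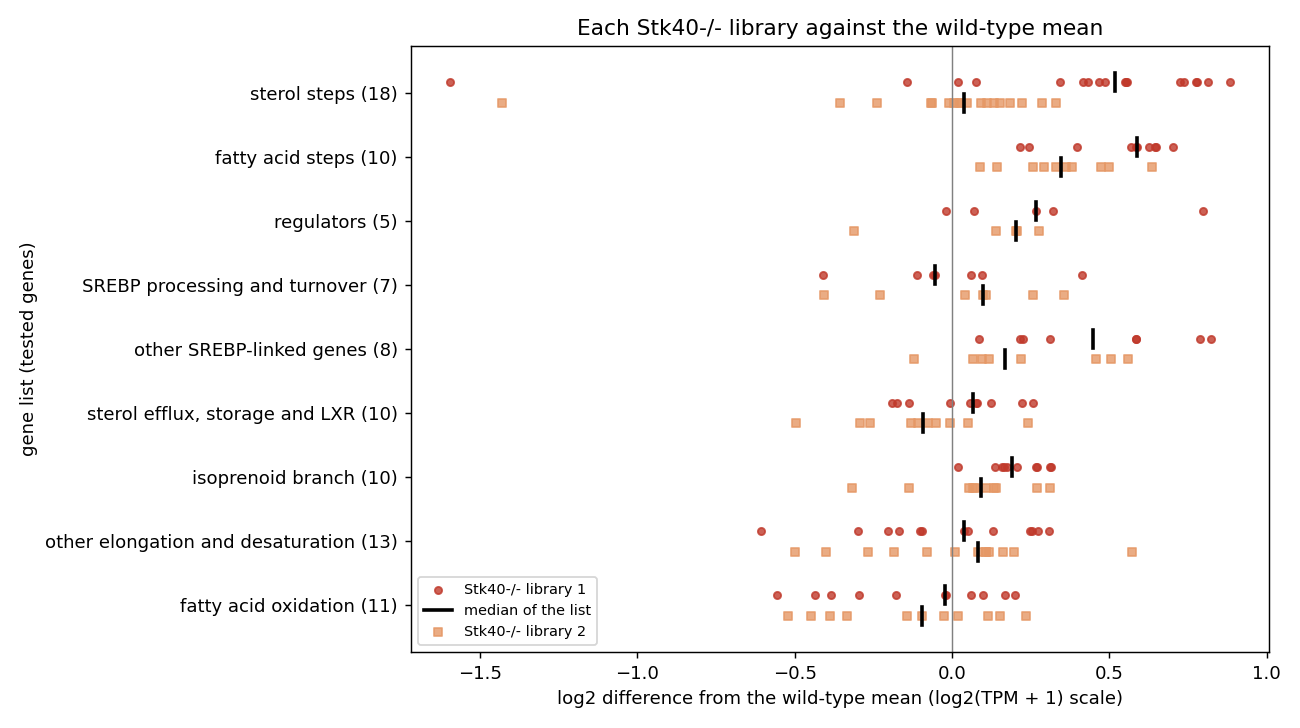
Log2 difference of each Stk40-/- library from the wild-type mean, 1 row per gene list with the number of tested genes in brackets; red circles are library 1, orange squares are library 2, and black bars are the list medians. The sterol medians are 0.52 and 0.04 and the fatty acid medians 0.59 and 0.35, and those of the other SREBP-linked genes are 0.45 and 0.17, with library 1 first in each pair.

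Genes downstream of the sterol enzymes were read in the same way. The 10 isoprenoid branch genes make or attach the farnesyl, geranylgeranyl, dolichol and coenzyme Q chains. Of these, 5 were above wild type in both Stk40-/- libraries and 0 below (all genes tested, 27.5% and 16.6%), with a median of 0.15. Stk40-/- library 2 was below library 1 in 9 of the 10 (all genes tested, 54.0%). Rabggta, a subunit of the enzyme that attaches geranylgeranyl groups to Rab proteins, was at 35.2 and 34.1 TPM in the Stk40-/- libraries, against 27.3 and 28.9 TPM in wild type. Of 13 listed genes for sterol efflux, storage and the LXR system 10 were tested, with Abca1, Abcg1 and Soat2 under the filter. Of these 10, 0 were above wild type in both Stk40-/- libraries and 2 were below (all genes tested, 27.5% and 16.6%), with a median of -0.04. Soat1, which esterifies cholesterol for storage, was at 71.0 and 67.6 TPM in the Stk40-/- libraries, against 86.2 and 76.6 TPM in wild type (fold change -0.23, limma adjusted p = 0.506).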

How the data were processed

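RNA sequencing values of 4 mouse libraries were used, grouped by their titles as 2 Stk40-/- and 2 wild type. The authors deposited TPM per gene for 51826 genes, per the file headers. Per the submitters' processing notes, the tools were CASAVA 1.7 and Salmon 0.8.2. Those notes name the human build hg38, while the gene IDs are mouse, so the annotation behind the values is unknown here. Depth cannot be read from TPM, so depth and counting error are unknown, and a few abundant RNAs can lower all other values of a library. Positions came from GENCODE vM21 on GRCm38, where 51633 IDs matched.

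The 15739 genes averaging 1 TPM or more were compared on log2(TPM + 1) by limma 3.58.1 (R 4.3.3), with an intensity trend, no replicate block and Benjamini-Hochberg adjustment at 0.05 over all of them. The fit was tested on simulated data. The members and lists were chosen with earlier results of these data known. All 33 members are given, so no rule picked among them; from the other lists, up to 3 genes were named by smallest unadjusted p. One gene that this rule names is not reported here. The alternatives were pseudocounts of 0.1 and 0.01 TPM, filters at means above 0 and of at least 5 TPM, median centring, leaving out mitochondrially encoded and ribosomal protein genes, no intensity trend, a replicate block and leaving out each library. Leaving out Ebp was added after seeing the data. Per-sample columns left unused numbered 0.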

Additional observations from a re-analysis of the deposited data

How the results depend on the processing

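No gene passed limma with Benjamini-Hochberg adjustment under any of the 12 alternatives (smallest adjusted p from 0.0694 to 0.319), with 985 to 2229 genes at an unadjusted p under 0.05. No paired analysis was used in the report, because the labels do not say whether same-numbered libraries were handled together. The deviations of same-numbered libraries correlated at 0.0893 over 15739 genes, which cannot decide whether they were. With the replicate block 0 genes were called, 2118 had an unadjusted p under 0.05 and the sterol median fold change was 0.29. The sterol median rested on single libraries, with a leave-one-out range of 0.038 to 0.52 (0.038 without Stk40-/- library 1, 0.52 without library 2). With a library left out, the lone library of that genotype is assumed to vary like the pair. The fatty acid median ran from 0.35 to 0.59 over the libraries left out. Median centring moved the median of all genes to 0.0061. Of 396 member values under the alternatives 9 changed sign, in 8 members. Tm7sf2 was at -0.0069 with median centring. With a library left out, fold changes ran from -0.064 to 0.42 for Acat2, -0.24 to 0.019 for Mvk, -0.0089 to 0.55 for Pmvk, -0.24 to 0.35 for Tm7sf2, -0.067 to 0.43 for Nsdhl, -0.63 to 0.13 for Hsd17b7, -0.020 to 0.20 for Srebf1 and -0.31 to 0.0705 for Scap. The other 25 members kept their sign. Ebp ran from -1.60 to -1.43 (limma adjusted p 0.126 to 0.415) and Elovl6 from 0.61 to 0.70 (0.255 to 0.714). The cause of these moves was not tested.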

Other observations

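Genes of fatty acid breakdown lay on both sides of wild type. Of 12 listed genes of fatty acid oxidation 11 were tested, Ppara being under the filter, and 2 were above wild type in both Stk40-/- libraries while 5 were below (all genes tested, 27.5% and 16.6%). Their median fold change was -0.02. Slc25a20, the carrier of acylcarnitines into mitochondria, was at 13.3 and 14.4 TPM in the Stk40-/- libraries, against 19.8 and 20.2 TPM in wild type (-0.50, limma adjusted p = 0.400). Hadhb, a subunit of the mitochondrial trifunctional protein, was at 57.9 and 49.4 TPM in the Stk40-/- libraries, against 75.1 and 67.6 TPM in wild type.

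Of the other 13 genes of elongation and desaturation, 6 were above wild type in both Stk40-/- libraries and 4 were below (all genes tested, 27.5% and 16.6%), with a median fold change of 0.08. Hacd2, a dehydratase of the elongation cycle, was at 17.3 and 18.7 TPM in the Stk40-/- libraries, against 27.0 and 26.7 TPM in wild type (-0.55, limma adjusted p = 0.343). Tecr, the reductase that ends the same cycle, was at 273 and 237 TPM in the Stk40-/- libraries, against 228 and 213 TPM in wild type.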
